A study of Danio rerio with 10 samples.

Results

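The 64-cell and 256-cell stages are 2 cleavage stages of the zebrafish (Danio rerio) embryo, and their comparison covers the interval just before the main wave of transcription from the embryo's own genome. Embryos of the wild-type AB strain were sampled as pools at each stage, broken up in a lysis buffer and separated by centrifugation into a cytosolic supernatant and a washed nuclear pellet. All groups share this strain and handling, with no mutation and no drug, and total RNA, with and without poly(A) tails, was sequenced after removal of ribosomal RNA. The comparison uses 4 of the 10 libraries of the series, namely 64-cell nuclear, 64-cell cytosolic, 256-cell nuclear and 256-cell cytosolic. The 6 others are the same fractions at 1000-cell, dome (a later blastula stage) and shield (early gastrula). There is 1 library per fraction and stage, so both fractions stand in for replicates of a stage. A fraction is a different kind of sample, and both fractions of a stage may come from 1 pool of embryos. The main test allows for a constant difference between the fractions, and its spread is their disagreement on the change between stages. That spread holds any real difference between nucleus and cytosol in this change together with technical error. Of 16383 transcripts in the table, 7491 had 10 or more counts in 2 or more of these 4 libraries and are the ones compared; 6167 had 0 counts in all 4, and 2725 had some counts but stayed under the minimum. Whether the table lists every transcript that was counted could not be told, so library totals, CPM values, numbers detected and shares of counts refer to the listed transcripts.

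In the cleavage embryo nearly all RNA is maternal, laid down in the egg during oogenesis. Cell divisions are fast and synchronous, and the embryo's genome is largely silent until the mid-blastula transition, although a small number of genes are transcribed earlier. Maternal RNAs are cleared over the stages that follow, while the products of the zygotic genome accumulate. The files identify transcripts by Ensembl transcript ID only and do not pair them with gene names, and 0 of the 16383 IDs matched the name tables at hand. Transcripts are therefore given by ID and no marker of nuclear or cytosolic RNA, or of any cell type, could be looked up.

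The 4 libraries held between 7010646 counts (256-cell nuclear) and 14311969 counts (64-cell cytosolic), with 8403209 in 64-cell nuclear and 9445461 in 256-cell cytosolic. A count of 3, taken as the floor of detection, corresponded to 0.21 to 0.428 CPM (read counts scaled to 1 fixed library total). At an equal depth of 7010646 counts, 8448 and 8736 transcripts were detected in the nuclear and cytosolic libraries at 64-cell and 8835 and 8643 at 256-cell. The 7491 compared transcripts held 99.56 to 99.88% of the counts of each library.

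The stages differed about as much as the fractions did. The 64-cell and 256-cell nuclear libraries differed 2-fold or more for 1627 transcripts (21.7% of 7491), and the cytosolic libraries of these stages for 1470 (19.6%). The nuclear and cytosolic libraries of a single stage differed 2-fold or more for 1240 transcripts (16.6%) at 64-cell and 1439 (19.2%) at 256-cell. Pearson correlations of log2 CPM across transcripts were 0.88 and 0.91 between stages within a fraction, and 0.921 and 0.905 between fractions within a stage. By share of counts, 10.5% of the nuclear and 11.6% of the cytosolic composition differed between the stages, against 10.3% and 12.4% between the fractions at 64-cell and 256-cell. Pairs that share neither stage nor fraction had correlations of 0.89 and 0.888, with 21.9% and 21.2% of transcripts past 2-fold. By share of counts they differed by 12.5% and 14.7%. By correlation, the nuclear libraries of both stages (0.88) were no more alike than these pairs, while the cytosolic ones (0.91) were. With 1 library each, these differences between libraries were not tested.

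Whether a transcript's level differed between the stages was tested with fraction as a block. None of the 7491 transcripts passed (0 called, 0%; edgeR's quasi-likelihood test, Benjamini-Hochberg adjusted p under 0.05, smallest adjusted p = 0.246), while 471 (6.29%) had an unadjusted p under 0.05, 281 of them higher and 190 lower at 256-cell. DESeq2, an alternative count test, called 141 transcripts (1.88%), 93 higher and 48 lower. Among them were 4 of the 15 named here, and its adjusted p is given beside each of the 4. The others named did not pass it, among them ENSDART00000125433 (DESeq2 adjusted p = 0.574). DESeq2 was fitted to the same 4 libraries with the same terms, so it had no more replicates than edgeR. In the edgeR fit the only measure of error is the disagreement of the 2 fractions, with 1 residual degree of freedom before moderation across transcripts. All that follows for single transcripts and groups is description of these libraries.

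The 2 fractions were in weak agreement on the direction of change. The log2 ratio of 256-cell to 64-cell CPM in the nuclear libraries correlated with that in the cytosolic libraries at r = 0.226 (Spearman's rho 0.198) across the 7491 transcripts, which are not independent replicates. The 2 ratios come from separate libraries, but all 4 libraries share 1 set of transcript models. The labels do not say that the 2 fractions of a stage came from separate pools of embryos. If they share a pool, anything particular to that pool moves both fractions together and counts as agreement. This was not tested. Of 7432 transcripts with a ratio other than 0 in both fractions, 4269 (57.4%, 95% Wilson interval 56.3 to 58.6%, taking transcripts as independent) had the same sign. Scaling by library totals gave 59.4%, outside this interval, which covers neither the choice of scaling nor differences between libraries. The SD of the ratio over transcripts was 1.52 for nuclear and 1.29 for cytosolic libraries, with a median of 0.00 in each.

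In the nuclear libraries 933 transcripts (12.5%) were 2-fold or more higher at 256-cell and 694 (9.26%) lower; in the cytosolic libraries 728 (9.72%) were higher and 742 (9.91%) lower. Of these, 304 transcripts (4.06% of all) were higher in both fractions and 216 (2.88%) lower in both. Opposite directions past 2-fold were seen for 248 transcripts, 142 (1.9%) higher in the nuclear and lower in the cytosolic library and 106 (1.42%) the reverse. The 768 transcripts past 2-fold in both fractions made up 47.2% of those past it in the nuclear and 52.2% of those past it in the cytosolic libraries. Over all 7491 transcripts, 21.7% were past it in the nuclear and 19.6% in the cytosolic libraries. Of the 768, 486 had a mean under 50 counts, where differences past 2-fold were most frequent in either fraction.

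**Figure D1:**
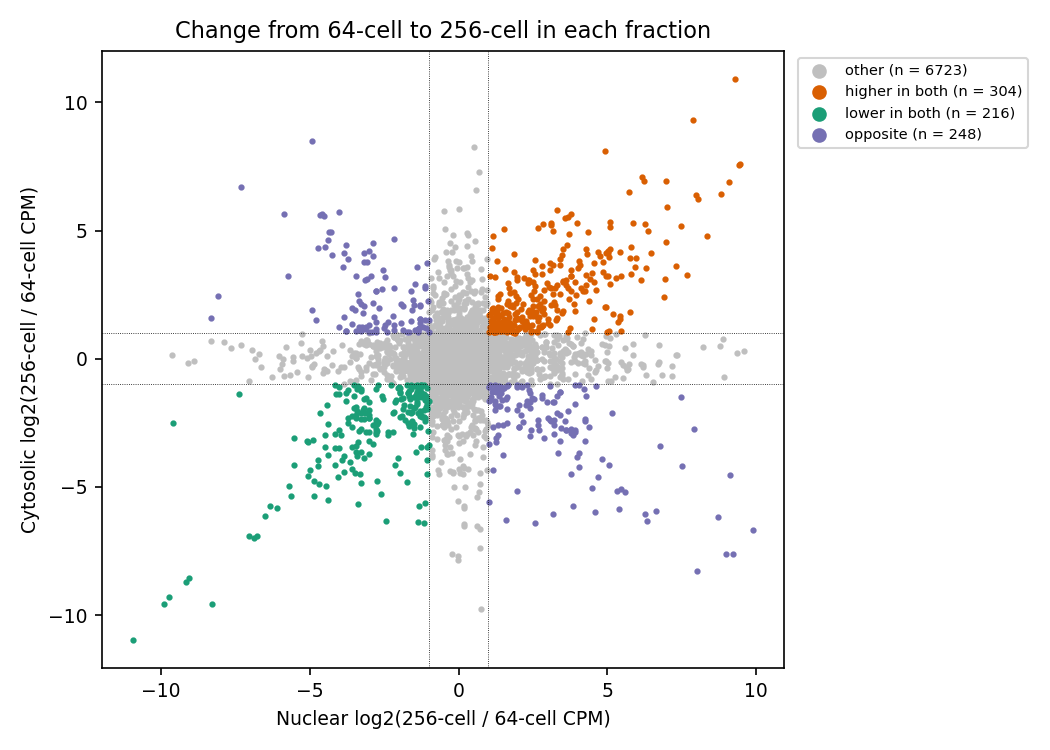
Each point is 1 of the 7491 transcripts, with the log2 ratio of 256-cell to 64-cell CPM in the nuclear libraries on the x axis and in the cytosolic libraries on the y axis (TMM scaling, prior count 2). Dotted lines mark a 2-fold difference; 304 transcripts were past it upwards in both fractions, 216 downwards in both and 248 in opposite directions, and many points lie along an axis, past 2-fold in 1 fraction only.

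Same-direction transcripts made up 67.7% of those past 2-fold in both fractions, against 57.4% of all with a sign in both, and among those past 2-fold the share was 65.6 to 72.4% at the higher minimum folds. Among transcripts past 4-fold in both fractions, 230 of 334 (68.9%) went the same way, past 16-fold 59 of 90 (65.6%), and past 64-fold 21 of 29 (72.4%). By mean count, the share with the same sign was 58.0% of transcripts with a mean under 50 counts, 56.8% from 50 to 200, 60.0% from 200 to 1000 and 55.2% over 1000, where r was 0.234, 0.205, 0.168 and 0.376. Large differences were, in contrast, mostly in low-count transcripts. A 2-fold difference in at least 1 fraction was seen for 1331 of 2085 transcripts (63.8%) with a mean under 50 counts and for 143 of 2098 (6.82%) with a mean over 1000.

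The same measures at the later steps are given beside these as values only, since neighbouring steps share libraries and the differences between steps were not tested. The share with the same sign in both fractions was 63.3% from 256-cell to 1000-cell (r = 0.246), 68.5% from 1000-cell to dome (r = 0.464) and 74.6% from dome to shield (r = 0.647). With fraction as a block, edgeR's quasi-likelihood test called 0 transcripts at the 2 middle steps (702 and 1407 at an unadjusted p under 0.05; DESeq2 called 184 and 763), and 557 from dome to shield. The last count did not hold with 50 counts in 2 libraries as the minimum, or with no fraction block, where it was 0.

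**Figure D2:**
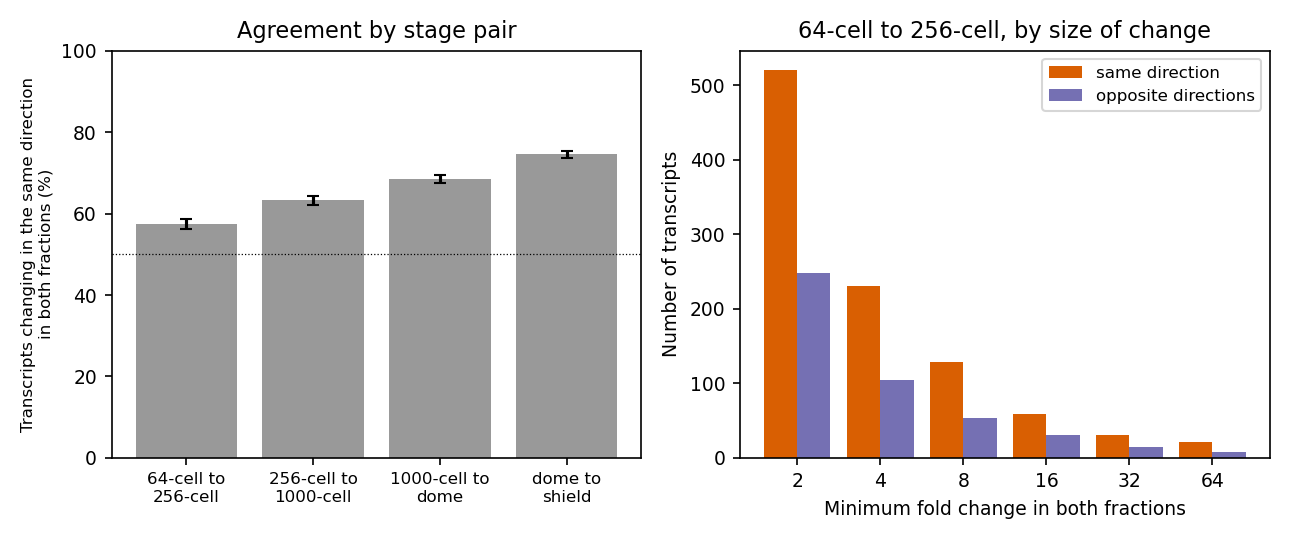
Left, the percentage of transcripts whose log2 ratio had the same sign in both fractions at each step, with bars starting at 0. It was 57.4% from 64-cell to 256-cell and 74.6% from dome to shield. Error bars are 95% Wilson intervals that take transcripts as independent. They cover neither differences between libraries nor the choice of scaling. The dotted line marks 50% as a guide only. Right, numbers of transcripts past a minimum fold difference in both fractions from 64-cell to 256-cell, with 520 in the same and 248 in opposite directions at 2-fold and 21 and 8 at 64-fold.

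A set of transcripts had no counts at 64-cell and appeared in both fractions at 256-cell. There were 49 transcripts (0.654% of 7491) with 0 counts in both 64-cell libraries and 10 or more in both 256-cell libraries. They were 24.4% of the 201 compared transcripts that went from 0 to 10 or more counts in the nuclear libraries, and 47.6% of the 103 that did so in the cytosolic libraries. A transcript at 0 in both 64-cell libraries was compared only if it had 10 or more counts in both 256-cell libraries. Those that reached 10 in 1 fraction only were left out, which can only raise both shares. At 256-cell the 49 together held 0.087% of the nuclear and 0.0682% of the cytosolic counts, with a median of 6.03 CPM (nuclear) and 2.6 CPM (cytosolic). Of their 6438 cytosolic counts, 3651 came from 1 transcript, ENSDART00000110559. The nuclear level was the higher one for 41 of the 49 (83.7%), against 49.4% of all compared transcripts. The 256-cell counts were used to choose the 49, so this share is not free of the choice. In 36 of the 49 the nuclear library also had more reads than the deeper cytosolic one.

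The libraries at later stages had no part in choosing these 49 transcripts. At 1000-cell their median was 14.4 CPM (nuclear) and 1.87 CPM (cytosolic), and at dome it was 41.4 CPM and 19.4 CPM. The medians over all 7491 transcripts were 22.0 and 21.0 CPM at 1000-cell and 25.3 and 22.2 CPM at dome. The median log2 ratio of nuclear to cytosolic CPM was 2.87 at 1000-cell, with the nuclear level higher for 39 of 49 (79.6%), against a median of 0.00 and 48.6% over all transcripts. At dome it was 0.54, against 0.02. The 49 thus had a lead in the nuclear library at 1000-cell, which was not used to choose them. They had it also at 256-cell, which was. At dome their cytosolic median was closer to the nuclear one. Their summed share of counts was 0.277% (nuclear) and 0.032% (cytosolic) at 1000-cell, 1.14% and 0.712% at dome, and 0.96% and 0.871% at shield. ENSDART00000110559, which held much of the 256-cell cytosolic sum, had 4 nuclear and 0 cytosolic counts at 1000-cell. The 49 did not all follow this course. At dome 27 of the 49 (55.1%) had 100 or more counts in both libraries, and 9 (18.4%) had 0 in both. Over all compared transcripts these shares were 61.8% and 1.42%.

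ENSDART00000110323 had the highest 1000-cell nuclear count of the 49. It was at 0 in both 64-cell libraries and had 953 nuclear and 365 cytosolic counts at 256-cell. Against a floor of 3 counts per library the nuclear level was at least 405-fold higher than at 64-cell, and the cytosolic level at least 196-fold higher. Its counts were 4639 nuclear and 546 cytosolic at 1000-cell, 37760 and 16338 at dome, and 10042 and 3794 at shield. The nuclear count was above the cytosolic one at each stage at which it was detected. ENSDART00000108677, the next by the same measure, was also at 0 in both 64-cell libraries and had 724 nuclear and 223 cytosolic counts at 256-cell, at least 308-fold and at least 120-fold higher. It had 3154 and 485 counts at 1000-cell, 10108 and 5061 at dome and 1096 and 750 at shield. Both transcripts were chosen after their values were seen.

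**Figure D3:**
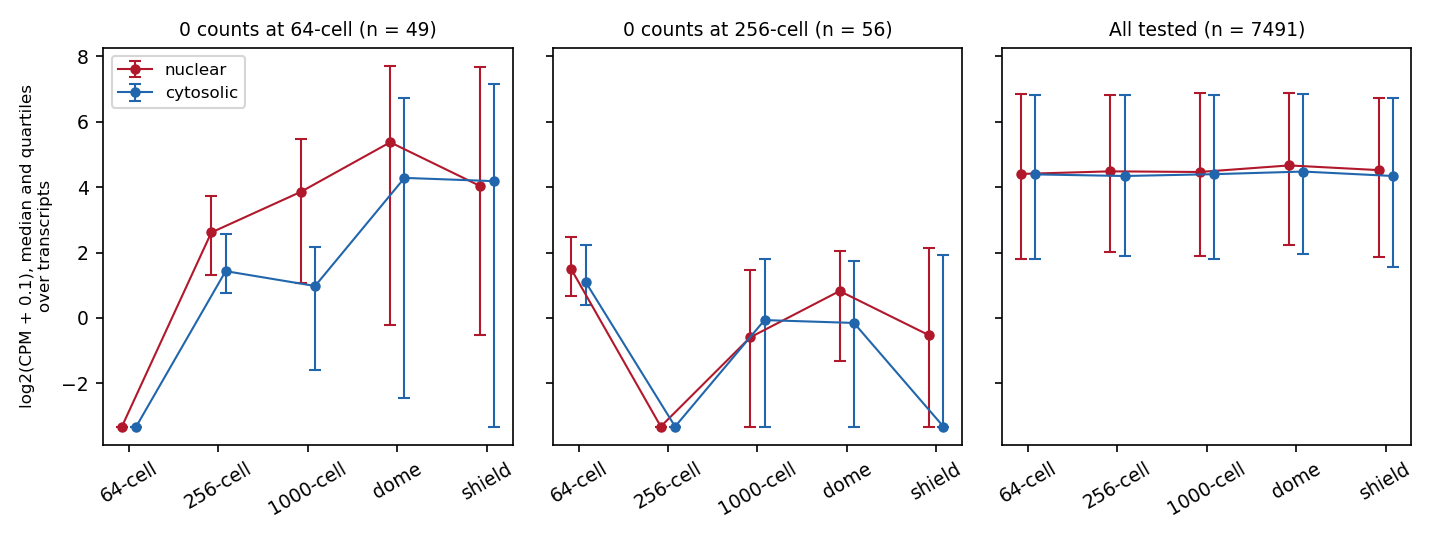
Median (points) and quartiles (bars) over transcripts of log2(CPM + 0.1) in the nuclear and cytosolic library of each stage, for the 49 transcripts at 0 at 64-cell, the 56 at 0 at 256-cell and all 7491. The values at 64-cell and 256-cell follow from the choice of the 2 smaller sets; at 1000-cell the 49 had a median of 14.4 CPM (nuclear) and 1.87 CPM (cytosolic), and the 56 had 0.563 and 0.856 CPM.

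The reverse set, with 10 or more counts in both 64-cell libraries and 0 in both 256-cell libraries, held 56 transcripts (0.748% of 7491). They were 29.8% of the 188 that went to 0 from 10 or more counts in the nuclear libraries and 32.4% of the 173 that did so in the cytosolic libraries. These shares too can only be raised by the minimum count, which left out transcripts at 0 in both 256-cell libraries with 10 or more in 1 fraction only. At 64-cell they held 0.102% of the nuclear and 0.0952% of the cytosolic counts, at medians of 2.7 and 2.04 CPM. At 1000-cell 46 of the 56 had at least 1 count, against 7371 of all 7491 compared transcripts. There 17 (30.4%) had 10 or more in both libraries, against 86.2% of all. All compared transcripts were of higher level, with 64-cell medians of 21.1 CPM (nuclear) and 20.9 CPM (cytosolic). Among other sets, this share was 57.1% of the 49 and 66.2% of the 160 others past 2-fold lower in both fractions. It was 52.1% and 54.7% of the 142 and 106 with opposite directions. For the 56, the median log2 ratio of nuclear to cytosolic CPM at 1000-cell was 0.00, with the nuclear level higher for 25 (44.6%). Over all transcripts these were 0.00 and 48.6%. The 49 and the 56 transcripts were therefore of like number and like median smaller count (21 and 22 at the stage where they were present). They were not matched in level, with medians there of 6.03 and 2.6 CPM for the 49 and 2.7 and 2.04 CPM for the 56. The 49 were chosen for presence at 256-cell, the stage before 1000-cell, and the 56 for absence there. Unlike levels at 1000-cell may follow in part from this choice. Their levels at 1000-cell and dome were not alike. That difference was not tested, since transcripts of 1 library are not replicates.

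ENSDART00000087247, chosen after its values were seen, is an example of a transcript at 0 in the 256-cell libraries alone. It had 1443 nuclear and 1922 cytosolic counts at 64-cell, 0 and 0 at 256-cell, and 1037 and 1560 at 1000-cell. At dome it had 2168 and 1272 counts and at shield 1244 and 1447. The 256-cell values were at least 378-fold lower in the nuclear and at least 398-fold lower in the cytosolic fraction than those at 64-cell. ENSDART00000008144 was also chosen after its values were seen. Its adjusted p was tied for the smallest of the comparison (edgeR's quasi-likelihood test, adjusted p = 0.246, log2 fold change -9.34, SE 0.284). The SE is derived from F and is too small for counts near 0, and the counting intervals below are far wider. DESeq2 gave ENSDART00000008144 an adjusted p of 1.23e-39. It had 2251 nuclear and 3527 cytosolic counts at 64-cell, 2 and 4 at 256-cell, 1931 and 2854 at 1000-cell, 1 and 3 at dome and 1 and 2 at shield. Both libraries were thus high at 64-cell and 1000-cell and near 0 at the other 3 stages. At 256-cell it was 884-fold lower in the nuclear library (95% exact counting interval 244 to 7299) and 548-fold lower in the cytosolic library (214 to 2013). Counting intervals cover counting error only, since they come from the counts of 2 single libraries. PCR copies cannot be told from separate molecules, so these intervals may be too narrow even for that.

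By the rule for named transcripts, the 2 that were furthest higher in both fractions were ENSDART00000110559 and ENSDART00000123099. ENSDART00000110559 is one of the 49 and had 848 nuclear and 3651 cytosolic counts at 256-cell, at least 360-fold and at least 1958-fold above the floor at 64-cell (edgeR adjusted p = 0.375). Its later counts were 4 and 0 at 1000-cell, 2765 and 0 at dome and 3 and 2189 at shield, so nearly all of its counts came from 1 fraction at each of the last 2 stages, nuclear at dome and cytosolic at shield. ENSDART00000123099 had 25 nuclear and 16 cytosolic counts at 64-cell and 4894 and 7443 at 256-cell. It was 249-fold higher in the nuclear library (95% exact counting interval 169 to 386) and 748-fold higher in the cytosolic library (461 to 1310), with an edgeR log2 fold change of 8.71 (SE 0.574, adjusted p = 0.375) and a DESeq2 adjusted p of 8.64e-77. Its counts stayed high afterwards, with 4985 and 9769 counts at 1000-cell, 8865 and 7229 at dome and 3262 and 3206 at shield.

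The 2 that were furthest lower in both fractions were ENSDART00000097929 and ENSDART00000093146. ENSDART00000097929 had 3329 nuclear and 6037 cytosolic counts at 64-cell and 0 in both libraries at 256-cell, at least 871-fold and at least 1251-fold lower (edgeR adjusted p = 0.375, DESeq2 adjusted p = 0.0269). At 1000-cell it had 0 nuclear and 5217 cytosolic counts, at dome 84 and 0, and at shield 127 and 0. ENSDART00000093146 had 1646 and 2289 counts at 64-cell and 0 and 0 at 256-cell, at least 431-fold and at least 474-fold lower (edgeR adjusted p = 0.375). It had 776 and 0 counts at 1000-cell, 875 and 872 at dome and 0 and 0 at shield. Neither transcript had a steady course over the stages.

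By amount of RNA, the transcripts with the largest gain in CPM in both fractions were ENSDART00000125433 and ENSDART00000127411. ENSDART00000125433 took 1.06% of the nuclear and 0.372% of the cytosolic counts at 64-cell, and 2.91% and 3.93% at 256-cell. Its 204186 nuclear counts at 256-cell were 2.91-fold above the 89285 at 64-cell after scaling, and its 371187 cytosolic counts 11.2-fold above 53216 (edgeR log2 fold change 2.52, SE 0.646, adjusted p = 0.772). ENSDART00000127411 had 7670 nuclear and 6207 cytosolic counts at 64-cell and 35317 and 55509 at 256-cell, 5.87-fold and 14.4-fold higher (edgeR log2 fold change 3.2, SE 0.433, adjusted p = 0.58; DESeq2 adjusted p = 1.45e-16). At 1000-cell both were below their 64-cell levels, with 15081 and 22448 counts for the first and 2539 and 3572 for the second. Both were high again in the cytosolic shield library, with 393971 and 58201 counts. All 304 transcripts past 2-fold upwards in both fractions held 302197 nuclear and 506627 cytosolic counts at 256-cell, and this pair made up 79.3% and 84.2% of them.

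The largest loss in CPM was that of ENSDART00000146596, followed by ENSDART00000097929. ENSDART00000146596 had 6423 nuclear and 15828 cytosolic counts at 64-cell and 64 and 6064 at 256-cell. It was 78.8-fold lower in the nuclear library (95% exact counting interval 61.6 to 102) and 1.62-fold lower in the cytosolic library (1.58 to 1.67), with an edgeR adjusted p of 0.805. At later stages it had 3 and 0 counts at 1000-cell, 19 and 13368 at dome and 6648 and 12 at shield. No fraction was the higher one throughout.

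The transcripts with opposite directions were led by ENSDART00000124130 and ENSDART00000112941, higher in the nuclear and lower in the cytosolic library. ENSDART00000124130 had 0 nuclear and 1531 cytosolic counts at 64-cell and 801 and 3 at 256-cell, at least 340-fold higher in the nuclear library and 317-fold lower in the cytosolic library (95% exact counting interval 108 to 1540). At later stages it had 5 counts in the cytosolic dome library and 0 in the other 5 libraries. ENSDART00000112941 had 0 nuclear and 942 cytosolic counts at 64-cell and 344 and 0 at 256-cell, a nuclear level at least 146-fold higher and a cytosolic level at least 195-fold lower. It had 566 and 711 counts at 1000-cell and 671 and 562 at dome, at like levels in both fractions. At shield it had 55 and 0.

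In the reverse direction, ENSDART00000064754 had 271 nuclear and 0 cytosolic counts at 64-cell and 0 and 197 at 256-cell, with nuclear RNA at least 70.9-fold lower and cytosolic RNA at least 106-fold higher. Its later counts were 271 and 0 at 1000-cell, 13 and 0 at dome and 44 and 0 at shield. It was thus counted in the cytosolic library at 256-cell only. ENSDART00000148520 had 246 nuclear and 6 cytosolic counts at 64-cell and 2 and 278 at 256-cell. It was 96.6-fold lower in the nuclear library (95% exact counting interval 26.5 to 802) and 74.5-fold higher in the cytosolic library (33.8 to 205). At 1000-cell it had 531 and 365 counts, at dome 1733 and 530 and at shield 442 and 127.

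**Figure D4:**
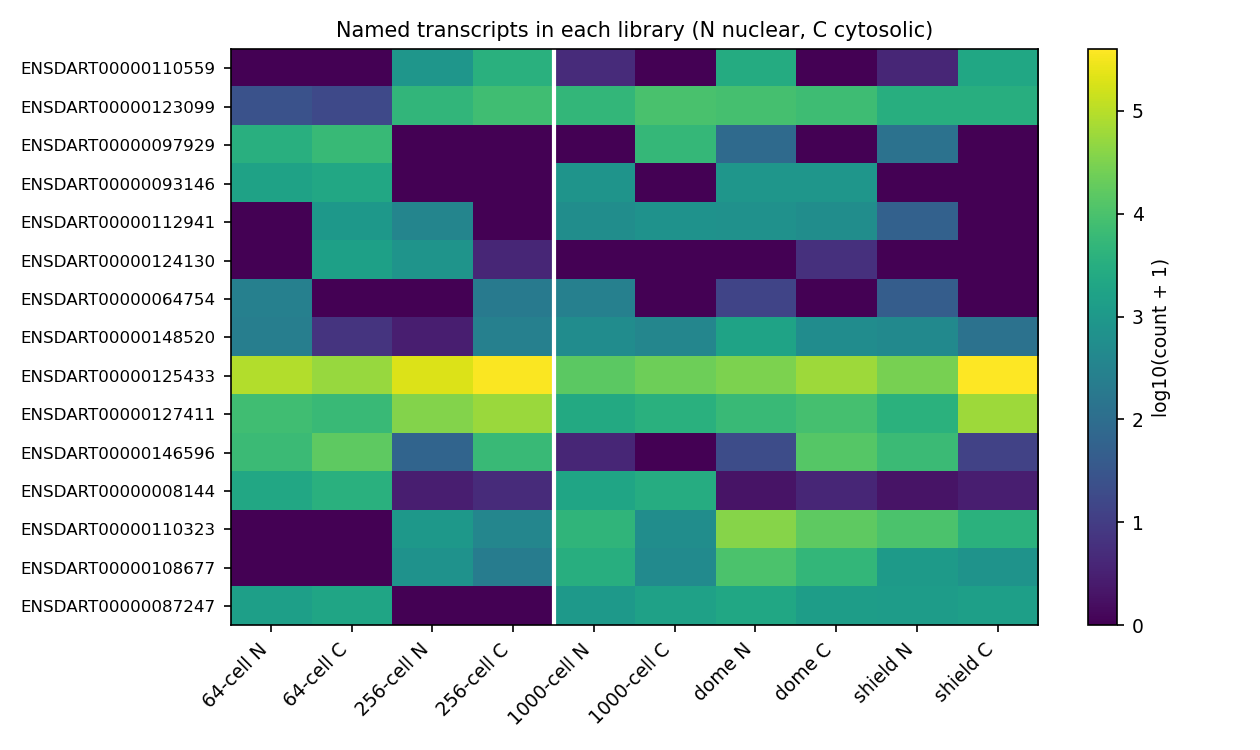
Counts of each named transcript in each of the 10 libraries, as log10(count + 1) in colour; libraries left of the white line are the 4 compared. ENSDART00000110323 and ENSDART00000108677 are at 0 at 64-cell and present in both fractions at every later stage, ENSDART00000008144 is high in both fractions at 64-cell and 1000-cell only, and ENSDART00000124130 and ENSDART00000112941 exchange fractions between 64-cell and 256-cell.

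The 248 transcripts with opposite directions had median ratios between fractions of much smaller size at 1000-cell than at 256-cell, though of the same sign. The 1000-cell libraries had no part in choosing them. The 142 that were higher in the nuclear and lower in the cytosolic library had a median log2 ratio of nuclear to cytosolic CPM of -2.33 at 64-cell and 2.98 at 256-cell, both set by the choice, and 0.13 at 1000-cell, where the nuclear level was higher for 75 of 142 (52.8%). The 106 with the reverse directions had 2.18 at 64-cell, -2.78 at 256-cell and -0.19 at 1000-cell, with the nuclear level higher for 40 of 106 (37.7%). Over all transcripts it was higher for 48.6% at 1000-cell.

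Transcripts past 2-fold in the same direction in both fractions were mostly of low level. The 304 that were higher at 256-cell had median levels of 0.935 CPM (nuclear) and 0.802 CPM (cytosolic) at 64-cell, 7.78 and 5.1 CPM at 256-cell, and 5.19 and 2.72 CPM at 1000-cell. At 1000-cell the nuclear level was the higher one for 190 of the 304 (62.5%), with a median log2 ratio of nuclear to cytosolic CPM of 0.80. Without the 49 transcripts at 0 at 64-cell, this median was 0.46 over the other 255. The 216 that were lower had medians of 3.74 and 3.55 CPM at 64-cell, 0.491 and 0.4 CPM at 256-cell, and 2.13 and 2.14 CPM at 1000-cell, with a median log2 ratio of 0.01 there.

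Zero counts in a single library were also seen for transcripts well counted in the other 3. Of the 7491 compared transcripts, 57 had 0 counts in 1 of the 4 libraries and 50 or more in each of the other 3. Of these zeros, 21 were in 64-cell nuclear, 4 in 64-cell cytosolic, 19 in 256-cell nuclear and 13 in 256-cell cytosolic. The deepest library was 64-cell cytosolic and the shallowest 256-cell nuclear, and the part of depth in these zeros was not tested. How reads were divided among transcript models of 1 gene was not stated, and its part in these values was not tested.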

How the data were processed

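RNA of nuclear and cytosolic fractions was measured by stranded total RNA sequencing, per the labels' protocols. The authors deposited whole-number counts per Ensembl transcript ID, 1 column per library, with no normalization. The submitters' processing notes name Trimmomatic 0.27, STAR 2.6.0a, StringTie and the genome build Zv9, with no role. The counting rule, the annotation release and the use of strand are not given in the sources used here. Counts of overlapping models and near-identical copies are therefore uncertain. Columns were matched to libraries by stage and fraction, with 0 left unmatched, and every group has 1 library.

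Counts were tested with edgeR 4.0.16 in R 4.3.3 (glmQLFit and glmQLFTest, TMM scaling, terms for fraction and stage, adjusted p under 0.05), keeping transcripts with 10 or more counts in 2 or more of the 4 libraries. The standard error is the log2 fold change divided by the square root of F, which can be too small where counts are near 0. Ratios per fraction used TMM-scaled CPM with a prior count of 2. Levels over all stages used TMM over the 10 libraries. Folds against 0 use a floor of 3 counts per library. Intervals of folds are exact binomial (95%), from counts of 2 libraries. They compare these libraries only, not the stages. Alternatives were DESeq2 1.42.0, other scalings and filters, another prior count, no fraction block and a fit of all 10 libraries. The fits were also run on simulated counts, with known differences made equal in both fractions. The real fractions were in weak agreement, so that run does not give the error rates of the fits here. Figures were drawn with matplotlib 3.10.9.

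Named transcripts have a mean of at least 50 counts over the 4 libraries. Named are the 2 per direction ranked by the smaller of the 2 absolute log2 ratios, for same and for opposite directions, and the 2 per direction with the largest CPM difference in both fractions. Others are marked. Planned gene lists needed gene names and are not analysed here. The transcripts and measures were chosen with earlier results of these data known. The labels do not say that libraries came from separate collections of embryos, so p-values measure the spread among these libraries, which may be technical. In the main fit that spread is the disagreement of the 2 fractions on the difference between stages.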

Additional observations from a re-analysis of the deposited data

Results flagged for a closer look

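In 4 transcripts the libraries of both fractions went in opposite directions from 64-cell to 256-cell, each by the rule for the furthest opposite differences. The nuclear minus the cytosolic log2 ratio was 16.28 for ENSDART00000112941, 16.82 for ENSDART00000124130, -14.03 for ENSDART00000064754 and -11.50 for ENSDART00000148520. The first 3 include libraries with 0 counts, where the size depends on the prior count. The differences between fractions were not tested, for want of replicates.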

How the results depend on the processing

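The count of 0 calls from 64-cell to 256-cell also held with RLE size factors, with library totals, with either other filter on counts and without the 10 most abundant transcripts. It was 141 with DESeq2, 6 with no fraction block and 3 in the fit of all 10 libraries (ENSDART00000087247, ENSDART00000008144 and ENSDART00000123099). That fit gave 0 to 2 calls with 1 of the 4 libraries left out, namely 1 without 64-cell nuclear, 2 without 64-cell cytosolic and 0 without either 256-cell library, where the remaining library of the stage is assumed to vary like the others. With no low-count filter, r between the fractions was 0.160 and rho 0.156, and with library totals the share of the same sign was 59.4%. The numbers past 2-fold depended on the filter. With no filter and with 50 counts in 2 libraries they were 1704 and 419 higher and 1201 and 301 lower in the nuclear libraries, and 1271 and 328 higher and 1324 and 326 lower in the cytosolic libraries. Opposite directions were then seen for 243 and 57 transcripts (nuclear higher) and 192 and 46 (nuclear lower). With 50 counts in 2 libraries, 138 were higher and 78 lower in both fractions. With a minimum of 50 in place of 10 counts, chosen after seeing the data, 12 transcripts appeared and 12 disappeared between the stages. For the later steps, the calls were 184 (DESeq2) and 1 (no fraction block) from 256-cell to 1000-cell, 763 (DESeq2) from 1000-cell to dome, and 307 (library totals), 2062 (DESeq2) and 0 (50 counts in 2 libraries, or no fraction block) from dome to shield, against 557. Apart from the fits just given, the cause of these differences was not tested. The stages were paired by fraction in the main fit, as the labels give no replicate numbers, and the count without this pairing is the 6 given for no fraction block.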
